A study of Mus musculus with 4 samples.

Results

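Linker histone H1 genes were examined in mouse E14 embryonic stem cells after Ssrp1 had been targeted with Cas9. The members were named by symbol, H1f0, H1f1, H1f2, H1f3, H1f4, H1f5 and H1f10, and all 7 were found among the 55353 symbols of the count table. The libraries labelled Ssrp1 KO (n = 2) were set against the control libraries of wild-type cells (n = 2). All 4 came from E14 cells of the strain given as 12910la, grown on gelatin in serum with LIF, the cytokine that keeps these cells undifferentiated. RNA was depleted of ribosomal RNA and sequenced from both ends, without selection for a poly(A) tail. Whether the paired libraries of a group are separate cultures, and how many knockout clones they stand for, is not in the labels, so p-values measure only the spread between these libraries, which may be technical. The treatment text also describes wild-type cells given an empty pSuper puro vector and puromycin, and does not say whether the control cells were so treated.

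Linker histones bind the nucleosome where DNA enters and leaves it and help to fold the chromatin fibre. Mouse H1f1 to H1f5 lie among the core histone genes of chromosome 13 and are made mainly in S phase, from mRNAs that end in a stem-loop in place of a poly(A) tail. H1f0 and H1f10 lie elsewhere, give polyadenylated mRNAs and are expressed outside S phase, H1f0 mainly in resting and differentiated cells. In mouse embryonic stem cells, combined loss of H1f2, H1f3 and H1f4 is known to loosen chromatin and to impair differentiation. Ssrp1 encodes a subunit of FACT, a histone chaperone that moves H2A and H2B on and off nucleosomes during transcription and replication.

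The stem-loop and promoter letters of the members are shown as background. Their part in the values below was not tested. The letters searched for the stem-loop are those in capitals in the lines of H1f2 and H1f6, with any base allowed where these lines differ. The search covered the sense strand of the GENCODE M21 transcripts (mm10), and 0.0649% of 55450 genes held the letters. They were found in H1f2, H1f3 and H1f4 and in the testis linker histone gene H1f6:
H1f2, chr13:23739507-23739532, plus strand: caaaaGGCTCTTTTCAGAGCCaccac
H1f3, chr13:23555782-23555807, plus strand: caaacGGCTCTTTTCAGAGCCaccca
H1f4, chr13:23621777-23621802, minus strand: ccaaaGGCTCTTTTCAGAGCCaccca
H1f6, chr13:23696520-23696545, plus strand: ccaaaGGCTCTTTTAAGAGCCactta
The stem-loop began between 24 and 40 bases after the stop codon in these 4 genes. The annotated H1f1 transcript ended inside such letters and that of H1f5 ended at the stop codon, so the full run was in neither. No match lay in the transcripts of H1f0 or H1f10.

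Promoter stretches of all 7 genes were read from RefSeq (GRCm38.p6), each covering positions -130 to -21 relative to the annotated start. Capitals mark AAACACA, the H1 box known from vertebrate H1 promoters, CCAAT, and TATANA, each searched on both strands. TATANA matches on opposite strands can overlap each other.
H1f1, chr13:23763538-23763647, plus strand: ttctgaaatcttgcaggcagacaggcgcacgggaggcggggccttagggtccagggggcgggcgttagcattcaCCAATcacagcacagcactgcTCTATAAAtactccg
H1f2, chr13:23738677-23738786, plus strand: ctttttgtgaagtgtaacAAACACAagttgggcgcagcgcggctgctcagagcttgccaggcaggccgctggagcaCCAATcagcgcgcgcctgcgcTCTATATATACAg
H1f3, chr13:23554902-23555011, plus strand: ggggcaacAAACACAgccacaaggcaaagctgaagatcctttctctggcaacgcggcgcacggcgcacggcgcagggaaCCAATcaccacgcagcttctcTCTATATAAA
H1f4, chr13:23622579-23622688, minus strand: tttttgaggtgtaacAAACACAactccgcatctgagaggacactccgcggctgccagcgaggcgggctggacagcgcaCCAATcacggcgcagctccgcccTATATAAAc
H1f5, chr13:21780646-21780755, minus strand: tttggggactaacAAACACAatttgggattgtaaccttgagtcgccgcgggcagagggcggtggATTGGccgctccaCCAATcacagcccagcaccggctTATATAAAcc
H1f0, chr15:79028082-79028191, plus strand: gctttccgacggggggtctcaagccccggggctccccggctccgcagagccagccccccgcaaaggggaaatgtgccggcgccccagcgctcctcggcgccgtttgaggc
H1f10, chr6:87981503-87981612, minus strand: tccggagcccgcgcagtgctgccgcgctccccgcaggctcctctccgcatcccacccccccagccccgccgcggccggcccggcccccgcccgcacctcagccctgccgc
CCAAT and TATANA were found in all 5 genes of chromosome 13, and AAACACA in 4 of them, H1f1 being the exception. H1f0 and H1f10 held none of these letters in the 300-base promoter window, which was 75.0% and 77.7% G or C, against 45.7% to 54.3% for H1f1 to H1f5. Of 32851 mouse promoter windows of that length, 7.18% held AAACACA, 37.4% CCAAT and 24.7% TATANA.

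H1 transcripts were less abundant in the libraries labelled Ssrp1 KO. The 7 genes together had 1305 and 1253 normalised CPM (gene counts relative to the library's TMM-scaled size) in the libraries labelled KO, against 1898 and 1734 in controls. That is a log2 ratio of -0.51, a description of the sum with no test. H1f1 to H1f5 made up nearly all of it, with 1247 and 1185 CPM in the libraries labelled KO and 1835 and 1679 CPM in controls, while H1f0 and H1f10 summed to 57.2 and 67.8 CPM against 62.3 and 55.2 CPM. By edgeR's quasi-likelihood test, with Benjamini-Hochberg adjustment over 17482 genes and a threshold of 0.05, 4 members fell (H1f1, H1f2, H1f3 and H1f5) and 1 rose (H1f10), while H1f0 and H1f4 were not called. Of all genes tested, 17.2% were called lower and 16.5% higher, or 33.6% in either direction. The median log2 fold change of the 7 was -0.47, against 0.00346 over all genes tested. In 4 members both libraries labelled KO lay below both controls, and in 2 above them. Over all genes 33.3% lay below and 33.3% above. All 7 passed the filter on low counts in both groups.

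**Figure D1:**
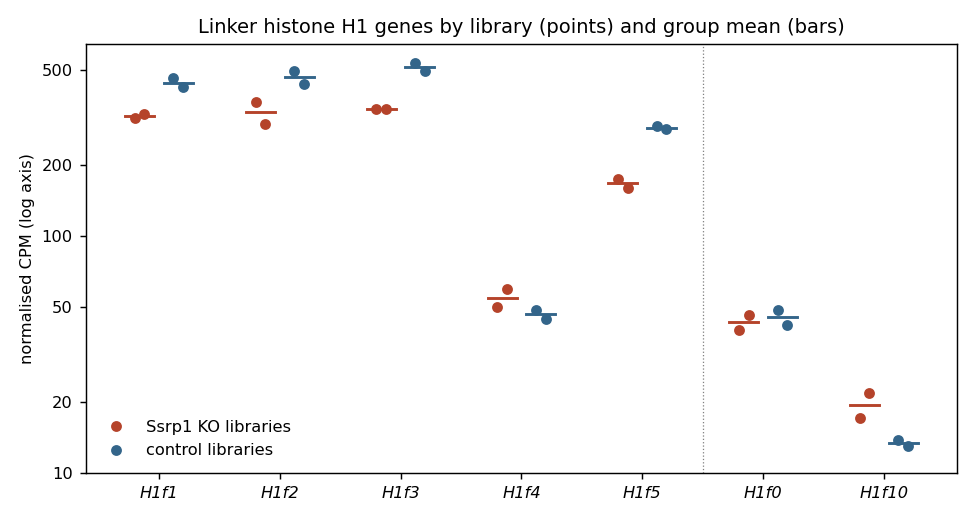
Normalised CPM (log axis) of each linker histone H1 gene, with the libraries labelled Ssrp1 KO left of the controls, points for libraries and bars for group means (n = 2 each). The dotted line parts the genes of chromosome 13 from H1f0 and H1f10. H1f1, H1f2, H1f3 and H1f5 lie lower in the libraries labelled KO, and H1f10 at 17.1 and 21.6 CPM lies above the controls at 13.8 and 12.99 CPM.

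H1f5 had the steepest fall. This replication-dependent subtype (chromosome 13, 21779832 to 21780625, minus strand, RefSeq on GRCm38.p6, a single exon) stood at 174.5 and 158.7 CPM in the libraries labelled KO, against 289.5 and 281.7 CPM in controls. The groups were well apart, with means of 166.6 ± 11.2 and 285.6 ± 5.49 CPM (SD, n = 2 each). The log2 fold change was -0.78 ± 0.07 (SE; edgeR adjusted p 2.2e-08), a fall of 41.7%.

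H1f3 (chromosome 13, 23555032 to 23555807, plus strand), another of the main S-phase subtypes of proliferating cells, stood at 341.4 and 344.4 CPM in the libraries labelled KO and at 535.4 and 494.2 CPM in controls. Both KO-labelled values lay close together and below both controls. Its log2 fold change was -0.59 ± 0.06 (SE; edgeR adjusted p 4.6e-07), a fall of 33.4%. In the same stretch of chromosome 13, H1f2 (23738807 to 23739531, plus strand) had 367.8 and 295.5 CPM in the libraries labelled KO, against 497.6 and 435.5 CPM in controls. The libraries labelled KO differed from each other here more than for the other falling genes, with a mean of 331.6 ± 51.1 CPM against 466.5 ± 43.9 CPM in controls (SD, n = 2 each). The log2 fold change of H1f2 was -0.49 ± 0.08 (SE; edgeR adjusted p 1.2e-04), a fall of 28.9%. H1f1 (23763668 to 23764412, plus strand), a subtype made in S phase like these, had 313.7 and 326.9 CPM in the libraries labelled KO and 464.0 and 422.7 CPM in controls. Its groups did not overlap, and the log2 fold change was -0.47 ± 0.06 (SE; edgeR adjusted p 1.1e-05), a fall of 27.8%. All 4 falls were past the threshold in each of 11 alternative settings.

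H1f4 did not fall with H1f1, H1f2, H1f3 and H1f5. It encodes the subtype that is the most abundant H1 of many mouse tissues, and lies between H1f3 and H1f2 (chromosome 13, 23621777 to 23622558, minus strand). It had 49.9 and 59.6 CPM in the libraries labelled KO, from 1167 and 1417 counts, against 48.9 and 44.8 CPM in controls, from 1078 and 1096 counts. The 2 values of the libraries labelled KO lay above both controls. The log2 fold change was 0.23 ± 0.09 (SE, 95% interval 0.04 to 0.42; edgeR adjusted p 0.061). The call rested on single choices. The log2 fold change was 0.35 without KO replicate 1 and 0.09 without KO replicate 2. With all 4 libraries H1f4 was past the threshold with scaling by library size alone (edgeR adjusted p 0.014) and with the replicate number as a block (0.028). It was so too when only genes reaching 5 CPM in 2 libraries were kept (0.040), but not with DESeq2 (adjusted p 0.193).

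H1f10 (chromosome 6, 87980421 to 87981482, minus strand), a divergent replication-independent subtype, rose. It had 17.1 and 21.6 CPM in the libraries labelled KO, from 399 and 515 counts, against 13.8 and 12.99 CPM in controls, from 305 and 318 counts. The log2 fold change was 0.53 ± 0.13 (SE; edgeR adjusted p 0.0039), or 1.44-fold, with no overlap between the groups. Library KO replicate 2 carried the larger share of the rise, since without it the log2 fold change was 0.35 and the call was lost. With all 4 libraries the alternatives gave edgeR or DESeq2 adjusted p values between 3.4e-04 and 0.026.

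H1f0 (chromosome 15, 79028212 to 79030504, plus strand), the replication-independent subtype of resting cells, had 40.2 and 46.1 CPM in the libraries labelled KO, against 48.5 and 42.2 CPM in controls. The groups overlapped. The log2 fold change was -0.07 ± 0.09 (SE; edgeR adjusted p 0.610), with a 95% interval from -0.26 to 0.13, and its sign turned to 0.01 with scaling by library size alone. In a bulk sample, fewer cells that express a gene and less of its RNA per cell cannot be told apart.

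**Figure D2:**
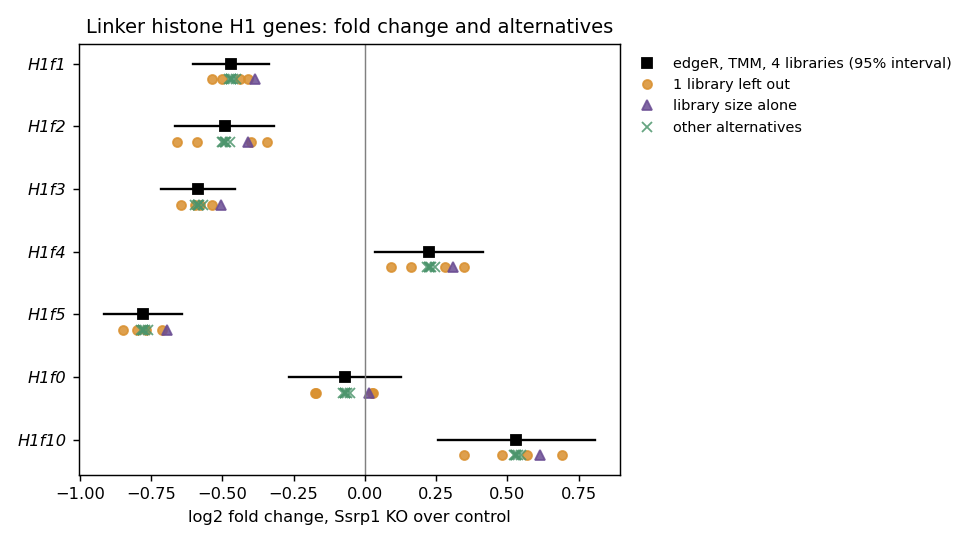
Log2 fold change (libraries labelled Ssrp1 KO over control) of each linker histone H1 gene, as squares with 95% intervals, and its value in each alternative setting beneath. H1f1, H1f2, H1f3 and H1f5 stay below 0 throughout and H1f10 above 0, whereas H1f0 has values on both sides of 0.

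The make-up of the H1 transcript pool was described per length, as CPM per kilobase of the RefSeq gene, all members having 1 exon. In the libraries labelled KO, H1f2 (507.3 and 407.5), H1f3 (440.0 and 443.8) and H1f1 (421.1 and 438.7) led. The range of H1f2 overlapped those of H1f3 and H1f1, while H1f3 lay above H1f1 in each library. The same 3 led in controls, at 686.3 and 600.6 for H1f2, 689.9 and 636.9 for H1f3, and 622.8 and 567.4 for H1f1. H1f2 again overlapped the other genes, and H1f3 again lay above H1f1. H1f5 followed in both groups, with 219.7 and 199.8 CPM per kilobase in the libraries labelled KO and 364.6 and 354.8 in controls. H1f4 came next at 63.8 and 76.2 in the libraries labelled KO, against 62.5 and 57.2 in controls. At the low end H1f0 (17.5 and 20.1) and H1f10 (16.1 and 20.4) overlapped in the libraries labelled KO, while in controls H1f0 (21.1 and 18.4) lay above H1f10 (13.02 and 12.2). This order depends on the gene model. GENCODE M21 gives H1f3 an exon of 7425 bases, where RefSeq gives 776. With that length H1f3 dropped to 46.0 and 46.4 CPM per kilobase in the libraries labelled KO and 72.1 and 66.6 in controls, below H1f5. GENCODE also gives H1f2 1560 bases, where RefSeq gives 725. By GENCODE lengths H1f2 lay below H1f5 in controls (319.0 and 279.1 against 389.6 and 379.2). In the libraries labelled KO these genes overlapped (235.8 and 189.4 for H1f2, 234.8 and 213.5 for H1f5). H1f1 then led in both groups.

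Shares of the summed CPM per kilobase do not depend on scaling between libraries. H1f4 made up 3.79% and 4.74% of the pool in the libraries labelled KO, against 2.54% and 2.55% in controls. H1f10 made up 0.954% and 1.27% against 0.529% and 0.544%, and H1f0 1.04% and 1.25% against 0.859% and 0.819%. Each of these 3 minor transcripts thus held a larger share in both libraries labelled KO than in either control. H1f5 held a smaller one, 13.04% and 12.4% against 14.8% and 15.8%. The shares of H1f1 and H1f2 overlapped between the groups (24.98% and 27.3% against 25.3% and 25.2% for H1f1, and 30.1% and 25.4% against 27.9% and 26.7% for H1f2). H1f3 held 26.1% and 27.6% in the libraries labelled KO, against 28.04% and 28.3% in controls. With 2 libraries against 2 an exact permutation test cannot reach 0.05, and none was made.

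**Figure D3:**
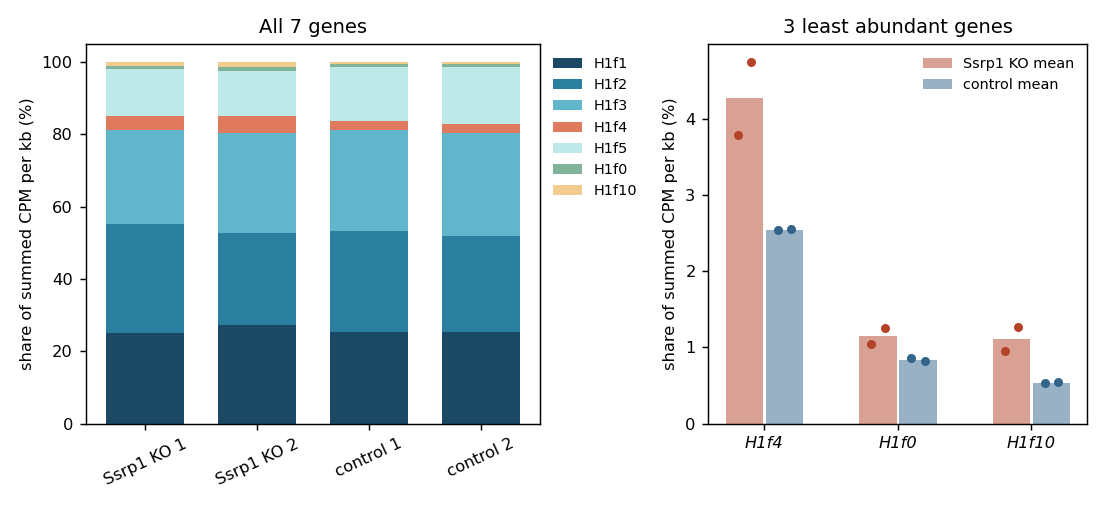
Left, share (%) of each gene in the summed CPM per kilobase of the 7 linker histone H1 genes, 1 bar per library, with those labelled Ssrp1 KO first. Right, the same shares for the 3 least abundant genes, with bars for group means and points for libraries: H1f4 is at 3.79% and 4.74% in the libraries labelled KO and at 2.54% and 2.55% in controls.

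How far reads can be assigned to single members differs within the family. The coding sequences of H1f2, H1f3 and H1f4 were 80.7% to 84.0% identical to each other, and 13.8%, 10.3% and 9.86% of their 100-base windows also occurred in another of these 3 genes. No such window was shared for H1f0, H1f1 or H1f5. For H1f10, 24.5% of 100-base coding windows occurred in Gm5577, an antisense gene that shares 213 exon bases with it and had 67 and 50 counts in the libraries labelled KO, against 57 and 65 in controls. The GENCODE model of H1f4 overlaps H2bc6 (Hist1h2be in GENCODE) on the same strand over 496 bases. H2bc6, a core histone gene, had 37.7 and 40.1 CPM in the libraries labelled KO and 33.4 and 34.6 CPM in controls, with a log2 fold change of 0.19 ± 0.09 (SE; edgeR adjusted p 0.107). The share of H1f4 counts that came from the overlap was not tested.

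Of the 4 germline linker histone genes, only H1f6, the testis H1, was tested. It fell, with 122 and 104 counts (5.22 and 4.37 CPM) in the libraries labelled KO, against 214 and 246 counts (9.70 and 10.0 CPM) in controls, at a log2 fold change of -1.04 ± 0.17 (SE; edgeR adjusted p 9.7e-05). H1f6 lies in the same cluster as H1f1 to H1f5. The oocyte gene H1f8 and the spermatid gene H1f7 had no count in any library, which allows up to 0.136 CPM in a single library by counting error alone. Hils1, the spermatid-specific gene also called H1.9, had 4 counts in control replicate 1 and 0 in the other libraries.

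The core histone genes around the H1 genes were compared in the same fit. Over all genes tested, 17.2% were called lower and 16.5% higher. Chromosome 13 held 41 tested replication-dependent core histone genes, of which 23 were called lower and 1 higher (H4c1), with a median log2 fold change of -0.44. H4c1, at 0.25 (adjusted p 0.038), was named after its value was seen. For each H1 gene of the cluster the nearest core histone gene on either side was taken by annotated start. Start here means the lower RefSeq coordinate of a gene, whatever its strand. Of these 10 neighbours 5 were called lower and 0 higher. These neighbours were not equally near. Their starts lay between 1783 bases (H3c1 from H1f1) and 170057 bases (H2bc1 from H1f1) away, with H2bc6 and H2ac6 38107 and 61696 bases from H1f4. In the GENCODE models, however, H2bc6 overlaps H1f4. H3c11 beside H1f5 had 71.4 and 81.5 CPM in the libraries labelled KO, against 133.5 and 123.2 CPM in controls, a log2 fold change of -0.75. Around H1f3, H4c6 was at -0.51 and H3c6 at -0.47. H3c3 beside H1f2 was at -0.71, with H4c3 on its other side at -0.14 (not called), and H3c1 beside H1f1 at -0.41 (adjusted p 0.057 without control replicate 1), with H2bc1 at 0.00190 and few counts. The neighbours of H1f4 were not called, with H2bc6 at 0.19 (called higher with library-size scaling) and H2ac6 at -0.35 (called lower without KO replicate 2), nor was H2bc15 beside H1f5 (-0.74, on 18 to 45 counts). Core histone genes share near-identical sequence, which makes their single values uncertain.

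**Figure D4:**
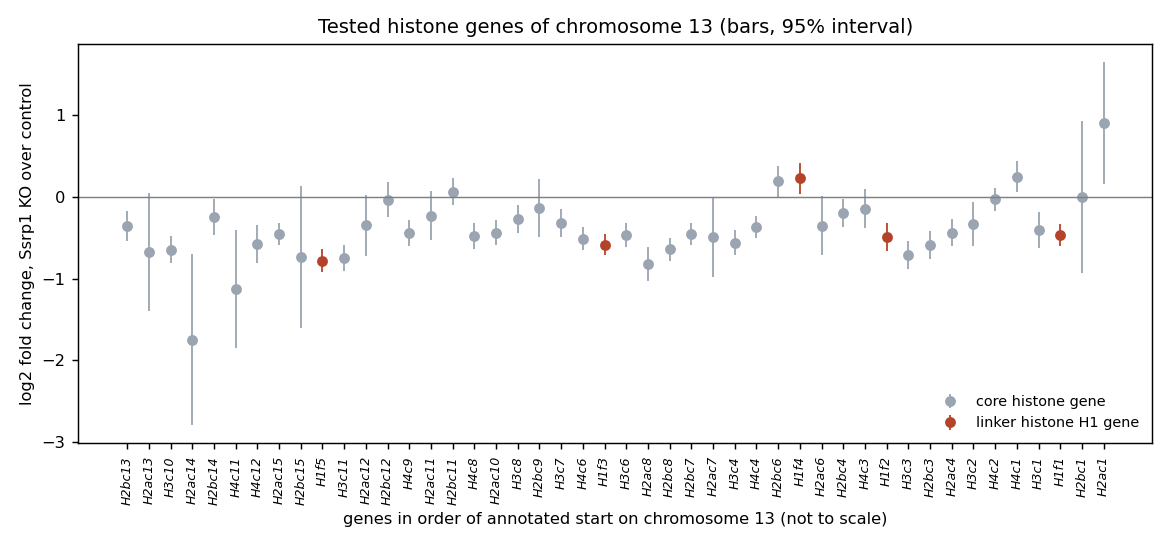
Log2 fold change (libraries labelled Ssrp1 KO over control) of the 41 tested core histone genes and of H1f1 to H1f5 on chromosome 13. Bars give 95% intervals, and genes are in order of annotated start (lower RefSeq coordinate), not to scale. H1f6, also tested there, is not drawn. H1f5, H1f3, H1f2 and H1f1 lie below 0 among mostly lower core genes, and H1f4 lies above 0 beside H2bc6.

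Other genes of histone production were read from lists, beside 16.5% of all genes tested called higher and 17.2% called lower. The genes named from a list are those with its smallest adjusted p. Over all chromosomes 51 replication-dependent core histone symbols were present, of which 49 were tested, 24 called lower and 1 higher (median -0.37). The lowest adjusted p in this list belonged to H3c11, H2bc8 (73.5 and 70.7 CPM in the libraries labelled KO, against 113.8 and 111.2 CPM in controls) and H3c3. Among 20 S-phase genes 10 were lower and 0 higher (median -0.19), including the DNA ligase gene Lig1 at -0.53, the cell-cycle transcription factor gene E2f1 at -0.51 and the helicase subunit gene Mcm6 at -0.41. That S-phase list moved in the same direction as H1f1, H1f2, H1f3 and H1f5, with summed levels of 4988 and 5111 CPM in the libraries labelled KO, against 5615 and 5738 CPM in controls, and its part in the H1 result was not tested.

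Of 15 genes for histone transcription and mRNA 3′ end processing, 2 were higher and 3 lower (median -0.04). Over all genes tested 16.5% were higher and 17.2% lower, and the genes named here are again those with the smallest adjusted p. Srrt, which encodes a cap-binding partner in RNA processing, had 191.1 and 213.5 CPM in the libraries labelled KO, against 131.0 and 134.2 CPM in controls (log2 fold change 0.61). The cap-binding subunit gene Ncbp2 was at 0.57 and Sympk, for the scaffold of the cleavage complex, at -0.35. Among 6 genes for chaperones that can bind H1, 2 were higher and 1 lower. Nap1l1, for a nucleosome assembly protein, had 1253 and 1275 CPM in the libraries labelled KO and 798.9 and 824.1 CPM in controls (0.64), and Set, an acidic histone-binding protein gene, was at 0.32. Nasp, which handles H1 and H3-H4, was at -0.21 (edgeR adjusted p 0.028), and that call was lost with scaling by library size alone (0.203) and without control replicate 1 (0.087), control replicate 2 (0.163) or KO replicate 1 (0.147). Of the high mobility group genes, whose proteins can compete with H1 for nucleosomes, 5 of 9 were higher and 0 lower (median 0.26). Hmga2 had 25.6 and 23.5 CPM in the libraries labelled KO, against 11.9 and 9.31 CPM in controls (1.22), Hmgb1 was at 0.29 and Hmgn2 at 0.41. DESeq2, and leaving out control replicate 2, each left 3 of the high mobility group genes higher.

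**Figure D5:**
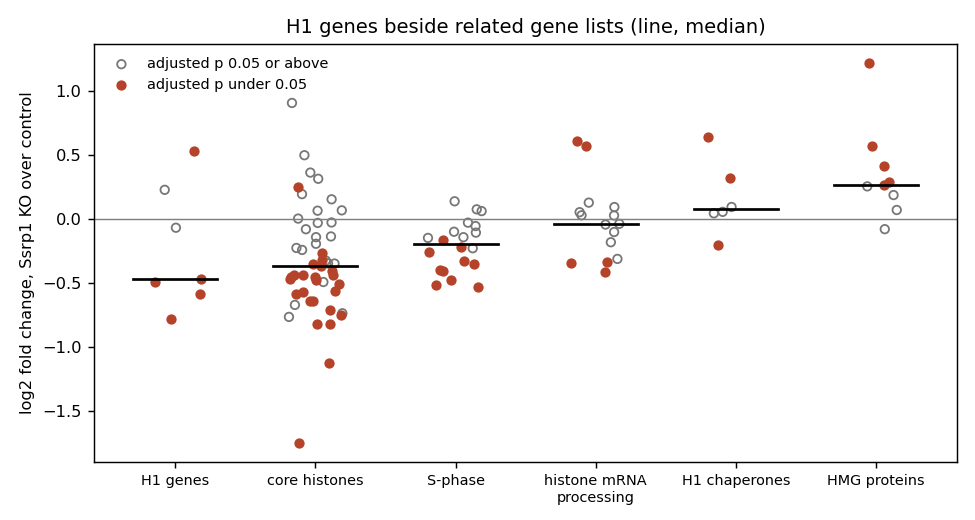
Log2 fold change (libraries labelled Ssrp1 KO over control) of the tested genes of each list, filled where the edgeR adjusted p was under 0.05, with a line at the list's median. The medians are -0.47 for H1 genes, -0.37 for core histones, -0.19 for S-phase genes, -0.04 for histone mRNA processing, 0.07 for H1 chaperones and 0.26 for high mobility group genes.

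Patterns over the 4 libraries were ranked against that of H1f3, the member with the highest mean CPM. Of the 17482 tested genes, those with symbols of predicted models, clones, pseudogenes or identifiers, mitochondrial genes and chromosome 18 genes were left out. Of the rest Atxn7l3b lay nearest, at a Euclidean distance of 0.00925 between centred log2 CPM, followed by Tbc1d9b (0.0242) and Qsox2 (0.0302). Their log2 fold changes were -0.58, -0.58 and -0.60, which lie near that of H1f3 because the genes were picked on these same values.

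Facts of the whole series bear on these values. Total counts were 22855451 and 23030224 in the libraries labelled KO and 22611434 and 25344190 in controls. A pair of genes with ribosomal-RNA-like sequence, Gm26917 and Gm42418, took 6.30% and 4.64% of counts in the libraries labelled KO, against 9.72% and 10.3% in controls, and leaving these genes out of the fit moved the log2 fold changes of the 7 H1 genes by at most 0.00076. The Ssrp1 transcript was not called (log2 fold change 0.11; edgeR adjusted p 0.226): it had 305.5 and 327.3 CPM in the libraries labelled KO, against 282.2 and 305.7 CPM in controls, and the knockout labels therefore could not be checked on it. Library-size scaling and leaving out KO replicate 1 called it higher. The marker lists stand beside 16.5% of all genes tested called higher and 17.2% lower. Markers named are among those with a list's smallest adjusted p. Embryonic stem cell markers were present in every library, with 3 of 10 called higher and 5 lower, Pou5f1 at 322.3 and 310.2 CPM in the libraries labelled KO and 401.0 and 415.7 CPM in controls. Esrrb and Tdgf1 were at log2 fold changes of -0.35 and -0.32. The 3 stem cell markers called higher are not named, and the list ran from -0.37 to 0.26 (median -0.16). Of 13 primitive endoderm markers tested, 10 were higher and 0 lower, with summed levels of the 14 listed genes of 487.9 and 489.4 CPM in the libraries labelled KO against 333.7 and 323.6 CPM in controls, none at 0 (Lrp2 at 0.75, Col4a1 at 1.18, Dab2 at 2.06). Neural markers had 1 higher and 3 lower of 7 tested, summing to 89.6 and 93.4 CPM against 160.2 and 166.7 CPM (Ncam1 at -2.40, Map2 at -0.97, Nes at 1.00). Fibroblast markers summed to 33.5 and 36.8 CPM against 38.6 and 39.6 CPM, with 1 higher (Tagln, at 1.78) and 1 lower (not named here) of 4 tested and Lum, Dcn and Postn without a count. The part of these markers in the H1 results was not tested.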

How the data were processed

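The deposited table held whole-number counts per gene symbol, not normalised, made by the authors with cutadapt, HISAT2 and featureCounts on mm10, per the submitters' processing notes. Their versions, annotation, strand and multi-mapping settings are not given in the labels. Of 55353 symbols 26633 had 0 counts in all 4 libraries. Genes passing edgeR's filterByExpr (minimum count 10, minimum total 15; 17482 genes) were fitted with edgeR 4.0.16 in R 4.3.3, using TMM factors, a quasi-likelihood F test with 2 residual degrees of freedom, and Benjamini-Hochberg adjustment over all of them at 0.05. The common biological coefficient of variation was 0.0666. Groups came from the sample titles, and the columns headed OK were taken as the KO titles. The H1 genes and lists were chosen with earlier results of these data known.

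Each library's counts were divided by its TMM-scaled size to give CPM, and then by the RefSeq length for CPM per kilobase. GENCODE's length and, chosen after seeing the data, the coding length were alternatives. Within groups, replicate counts differed by more than sampling noise (chi-square per degree of freedom 11.5 for the libraries labelled KO and 3.37 for controls), so each counted as 1 sample. A count of 0 allows up to 3 counts, 0.123 to 0.136 CPM, by counting error only. Alternatives were library-size scaling, RLE factors, no ribosomal-RNA-like genes, no filter, a 5 CPM filter, DESeq2 1.42.0, leaving out each library and a replicate block. The fit was tested on simulated data.

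Genes named are the 7 H1 genes, the germline H1 genes, Ssrp1, up to 3 genes with the smallest adjusted p of each list, the core histone neighbours, and the 3 genes nearest in pattern to the most abundant H1 gene. Mouse chromosome 18 genes are not named, which leaves out 1 gene that the rule picked.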

Additional observations from a re-analysis of the deposited data

How the results depend on the processing

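Under all 11 alternatives H1f1, H1f2, H1f3 and H1f5 were called lower. The number of H1 genes called higher was 2 with library-size scaling, with the 5 CPM filter and with the replicate block, and 0 to 2 when a library was left out. H1f4 was past the threshold with library-size scaling (log2 fold change 0.31), the 5 CPM filter (0.24) and the replicate block (0.22), and ran between 0.092 and 0.35 when a library was left out. H1f10 ran between 0.35 and 0.69 when a library was left out. H1f0 was at 0.014 with library-size scaling and between -0.17 and 0.028 when a library was left out. H2bc1, on 21 to 48 counts, was at -0.0060 without a filter, -0.0073 with DESeq2, and between -0.70 and 0.76 without a library; H4c3 ran between -0.33 and 0.058. The cause of these changes was not tested.

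Library-size scaling moved the median log2 fold change of all genes to 0.087, against 0.0035, and the share of calls that were higher to 63.7%, against 49.0%. Under it 4 histone mRNA processing genes, 1 S-phase gene and 4 core histone genes were higher, and 0 H1 chaperone and 0 fibroblast genes lower. DESeq2 called 3 high mobility group and 0 core histone genes higher, 0 fibroblast genes lower, and 1977 of all genes lower. Without a filter 3 core histone genes and 2 fibroblast genes were higher, and with the 5 CPM filter 0 fibroblast genes were. Leaving out a library gave 0 to 1 H1 chaperone and 0 to 1 fibroblast genes lower, and 3 to 6 high mobility group, 0 to 2 S-phase, 1 to 3 stem cell and 0 to 3 core histone genes higher. Over all genes 1915 to 2995 were then higher, the lowest without control replicate 1. The share of H1f0 in the H1 pool, KO minus control, was 0.58 points with the GENCODE length and 0.98 with the coding length, and that of H1f10 0.84 and 0.89. With the GENCODE length that of H1f3 was -0.21 and of H1f5 -4.47. When a library was left out, the difference for H1f1 ran between -0.30 and 2.03, and for H1f2 between -1.94 and 2.79 points, with -0.16 without control replicate 2.

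The correlation of deviations between same-numbered libraries was 0.0078 over 17482 genes. From 2 libraries a group it cannot exclude that same-numbered libraries were paired. With the replicate block 3 core histone genes were higher, H1f4 was called, and 3216 of all genes were lower and 3072 higher. With 2 libraries a group, a lone library was assumed to vary like the other group when one was left out. Libraries labelled KO differed more from each other than controls did (chi-square per degree of freedom 11.5 against 3.37). Calls made without a KO library rest on the spread of the controls alone and may be too many.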
